A study of Homo sapiens with 9 samples.

Results

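A list of 10 imprinted genes was followed through the Chrom-seq libraries of HEK293T cells, a human embryonic kidney line. Its genes were taken by symbol from the count table, which lists 57820 genes, and all 10 were found there, namely H19, IGF2, KCNQ1OT1, CDKN1C, MEG3, PEG3, PEG10, MEST, PLAGL1 and GNAS. The list holds coding and noncoding genes whose control regions are known to carry trimethylated lysine 9 of histone H3 (H3K9me3) on the copy from only a single parent. Whether these regions carry the mark in the cells used here was not measured in these libraries, and the counts do not tell the parental copies apart.

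Chrom-seq labels RNA close to a chromatin mark in living cells. A reader domain is fused to 10 SunTag epitopes, which are bound by an antibody fragment joined to the peroxidase APEX2, and APEX2 biotinylates nearby RNA. A total of 3 groups of 3 libraries each (9 in all) were compared. The CBX1 group used the chromodomain of mouse CBX1, a binder of H3K9me3, as its reader. CBX1_W42A was a mutant of that domain, with the W42A change, and is called a reader below. Whether it binds H3K9me3 was not measured in these libraries. The control group had the SunTag construct with no reader. All 3 groups were transfected HEK293T cells carrying the same labelling system, their samples were described with a nuclear localization signal (NLS), and cells were taken 48 hours after transfection. Every group received biotin-aniline (500 µM, 30 min) and hydrogen peroxide (1 mM, 1 min), so that the control carries the background of labelling without a reader. Biotinylated, polyadenylated RNA was then reverse transcribed with random primers. The line is 1 transformed and aneuploid cell line, so imprints there may differ from those of a tissue.

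Imprinting is the expression of a gene from the copy of a single parent. At an imprinted control region the DNA of the copy from a single parent is methylated and its nucleosomes carry H3K9me3. The zinc finger proteins ZFP57 and ZNF445 bind that methylated copy and recruit TRIM28, which brings the H3K9 methyltransferase SETDB1. Some of these domains make a long noncoding RNA, such as KCNQ1OT1, that acts on the copy it is made from.

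Library totals ran from 8379542 to 11082852 counts, and 21709 to 23819 genes had at least 1 count in a library. Noncoding genes took 3.06% to 3.40% of counts in control, 4.36% to 4.59% with CBX1 and 3.95% to 4.13% with CBX1_W42A. Mitochondrial genes took 3.16% to 3.50%, 4.36% to 4.70% and 4.20% to 4.39%. Both shares thus moved with the reader, and their part in the fold changes below was not tested. The kidney and HEK293T markers PAX2 (36 to 102 counts a library) and LIN28B (893 to 1527) were present, and the blood marker PTPRC had 0 to 2 counts. Of the other markers of foreign cell types, COL1A1 had 199 to 376 counts, COL3A1 52 to 107 and ALB 4 to 25. The 4 foreign markers together summed to 30.2 to 41.6 counts-per-million (CPM) in control, 36.6 to 46.6 with CBX1 and 36.3 to 47.9 with CBX1_W42A. PECAM1 had no entry under that symbol. Nothing in the labels says that the 3 libraries of a group came from separate cultures, so the tests measure only the spread between these libraries. The CBX1_W42A samples were registered apart from the control and CBX1 samples. Whether all were prepared together is not stated. A batch difference, if any, could not be told apart from the W42A change.

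A gene could be judged only where counts could reach it. A read that fell on several genes of its strand went to no gene, and all 7905 genes that lie wholly inside another gene of their strand had 0 counts. PEG3, a zinc finger gene, lies inside ZIM2 on its strand (chr19:57321445-57352096, minus strand, hg19), so 0 of its 30652 bases could collect counts and it was 0 in all 9 libraries. This says nothing of the PEG3 transcript. IGF2 shares most of its span with INS-IGF2, and 2582 of its 20492 bases (12.6%) were its own. Nearly all of these form a piece of 2573 bases at chr11:2151195-2153767. It is annotated as exon outside the coding sequence, at the 3′ end of the gene. The other 8 genes were countable over 99.5% to 100% of their spans. The count table's length of each gene is its whole span, and reads from introns and exons both count.

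**Figure D1:**
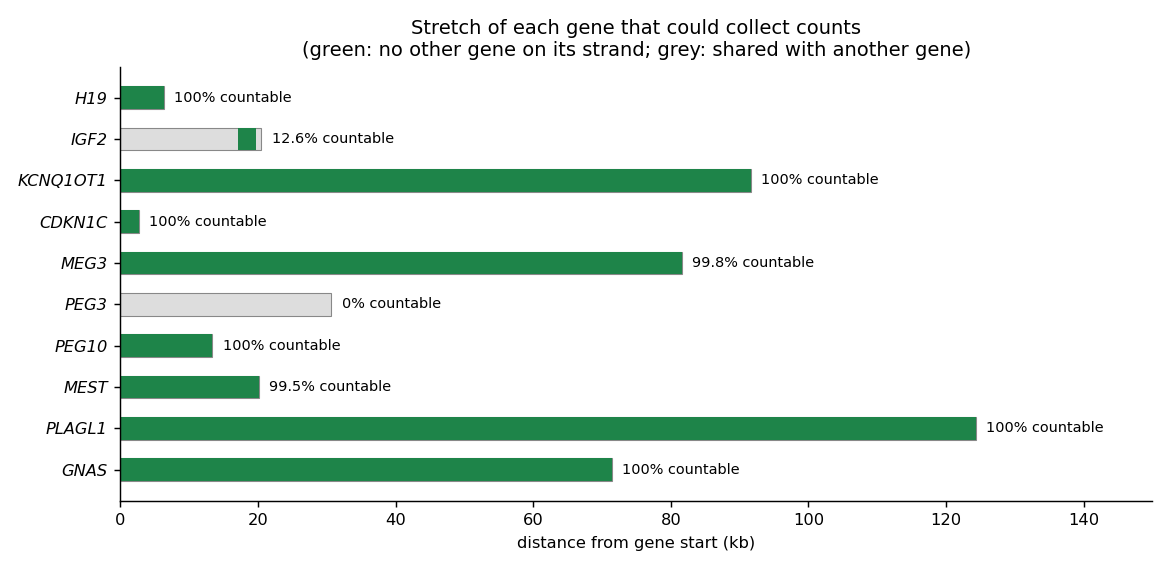
Each bar is a gene drawn from its start, in kilobases, with the stretch that no other gene of its strand shares in green and the shared stretch in grey. PEG3 has no green stretch and IGF2 has 12.6%, while the other 8 genes are green over at least 99.5% of their length.

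MEG3 and MEST could be reached but held almost nothing. MEG3, a maternally expressed noncoding RNA, had 0 counts in every control library, 0, 0 and 1 with CBX1 and 0, 2 and 0 with CBX1_W42A. MEST, an imprinted gene of the hydrolase fold family, had 3, 0 and 0 counts in control, 0 in every CBX1 library and 1, 0 and 0 with CBX1_W42A. Both fell under the minimum for testing, a sum above 18 counts over the 6 libraries of a comparison. A count of 0 still allows up to 3 counts, or 0.271 to 0.358 CPM depending on the library, which covers counting error only.

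The remaining 7 genes were tested in all 3 comparisons. A gene was called higher or lower at an adjusted p below 0.05 (edgeR's quasi-likelihood test, Benjamini-Hochberg over all genes tested) with a log2 fold change past 0.75 up or down. Of these 7 genes, 2 were called with CBX1 over control, where 7.06% of the 18837 genes tested were called higher. With CBX1_W42A over control 1 was called, beside 0.974% of 18680 genes. Between CBX1 and CBX1_W42A none was called by edgeR or by DESeq2, beside 0.795% of 19360 genes called higher. There, 1 of the 7 passed an unadjusted p of 0.05 (H19), beside 16.6% of all genes. None was called lower in any comparison, beside 0.34%, 0.0214% and 0.201% of all genes. For the 7, the median of the log2 fold changes was 0.07 with CBX1 and 0.18 with CBX1_W42A, against 0.03 and 0.01 over all genes tested. With 7 genes, these counts describe the genes named here. The 2 called genes, H19 and KCNQ1OT1, are the noncoding ones, and among noncoding genes tested 14.5% were called higher with CBX1 and 1.71% with CBX1_W42A.

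**Figure D2:**
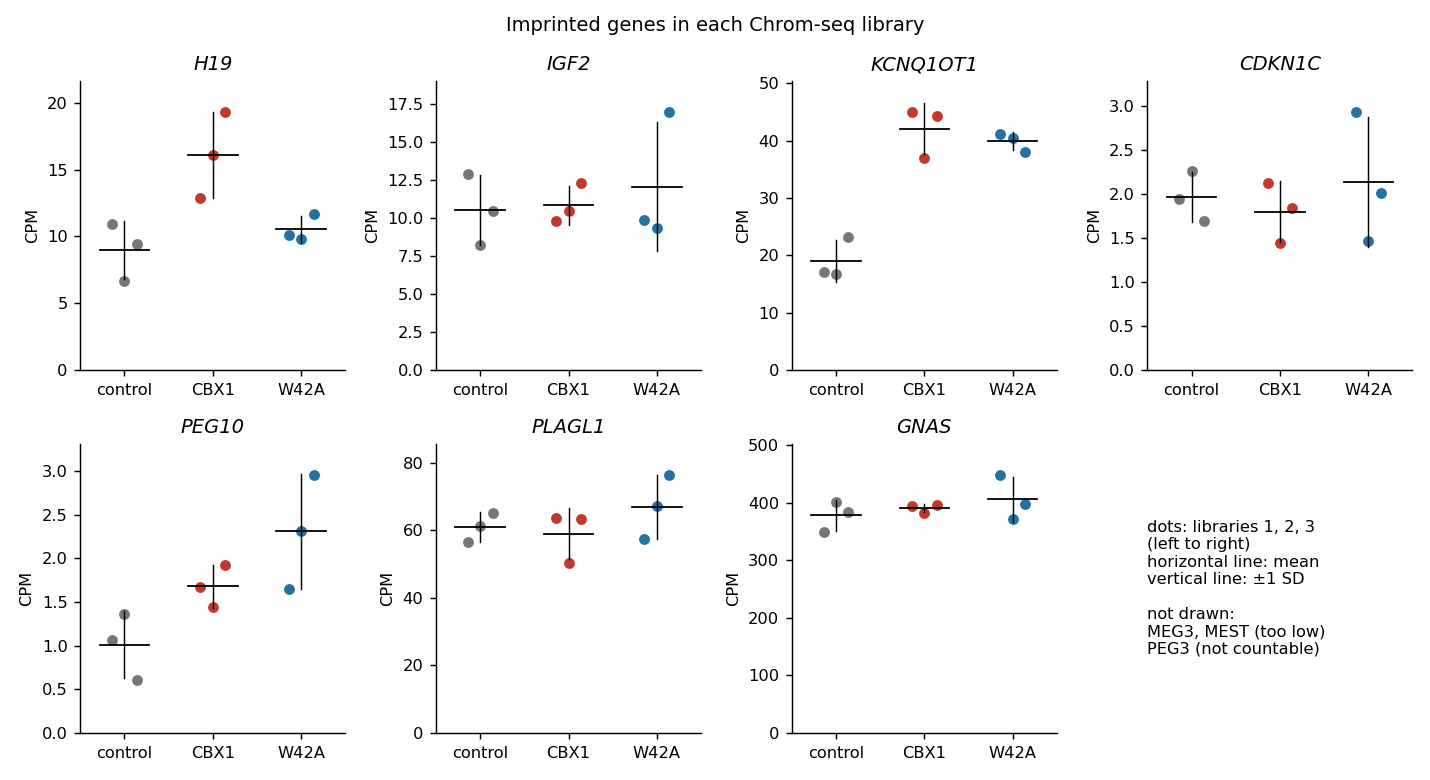
CPM (y axis, from 0, a separate scale for each gene) in each library of the control, CBX1 and CBX1_W42A (W42A) groups, with the mean of 3 libraries and ±1 SD. KCNQ1OT1 lies at 16.7 to 23.2 CPM in control and at 37.0 to 45.0 with either reader, while for H19 only the CBX1 libraries (12.9 to 19.3 CPM) lie above all control libraries (6.67 to 10.9 CPM) and all CBX1_W42A libraries (9.79 to 11.7 CPM).

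KCNQ1OT1 rose with CBX1 and with its mutant CBX1_W42A. It is a long, unspliced antisense RNA made from the paternal copy inside KCNQ1, and it keeps the neighbouring genes of that copy silent. Its entry spans 91667 bases (chr11:2629558-2721224, minus strand, hg19) within KCNQ1, which lies on the other strand.

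In control, KCNQ1OT1 had 177, 148 and 192 counts, or 17.2, 16.7 and 23.2 CPM (mean 19 ± 3.60, SD, n = 3). With CBX1 it had 404, 334 and 458 counts, or 45.0, 37.0 and 44.3 CPM (42.1 ± 4.43, n = 3). With CBX1_W42A it had 449, 384 and 360 counts, or 41.1, 40.4 and 38.1 CPM (39.9 ± 1.58, n = 3). All 6 reader libraries lay above the highest control library, and those of the readers overlapped each other. The log2 fold change over control was 1.17 (SE 0.14, 95% interval 0.88 to 1.46, edgeR adjusted p = 5.45e-05) with CBX1. With CBX1_W42A it was 1.06 (SE 0.14, 0.76 to 1.36, adjusted p = 0.00175). The readers differed by 0.08 (−0.16 to 0.32, adjusted p = 0.787), so a difference as large as 0.75 lay outside the interval. In all 14 alternatives of the processing KCNQ1OT1 stayed called with both readers, at 1.08 to 1.34 with CBX1 (adjusted p = 2.9e-16 to 0.000821) and at 0.99 to 1.23 with CBX1_W42A (adjusted p = 2.86e-09 to 0.015). Both comparisons share the 3 control libraries.

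KCNQ1, the potassium channel gene on the opposite strand, had 19 to 50 counts in control, 40 to 57 with CBX1 and 53 to 64 with CBX1_W42A over 404204 countable bases. It was not called (log2 fold change 0.40, interval −0.20 to 1.00, with CBX1 and 0.55, −0.05 to 1.14, with CBX1_W42A), and both intervals reach past 0.75. Levels per kilobase of countable span, introns included, were set beside each other within each library. KCNQ1OT1 stood 15.6 to 34.3 times above KCNQ1 in control, 28.3 to 44.5 times with CBX1 and 24.8 to 33.0 times with CBX1_W42A. These ranges overlap.

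H19 rose with CBX1 and not beyond the threshold with CBX1_W42A. It is a maternally expressed noncoding RNA and the host of a microRNA, and it lies beside IGF2 at chr11:2016406-2022700 (minus strand, 6295 bases). The bases around its start are shown because H19 was called with CBX1 only. They run from 250 bases before the start through the first 50 bases (chr11:2022651-2022950, minus strand), with bases taken from the GRCh37 genome. Capitals would mark each match to TGCCGC, the hexamer that ZFP57 binds when its CpG is methylated, searched on both strands.
H19: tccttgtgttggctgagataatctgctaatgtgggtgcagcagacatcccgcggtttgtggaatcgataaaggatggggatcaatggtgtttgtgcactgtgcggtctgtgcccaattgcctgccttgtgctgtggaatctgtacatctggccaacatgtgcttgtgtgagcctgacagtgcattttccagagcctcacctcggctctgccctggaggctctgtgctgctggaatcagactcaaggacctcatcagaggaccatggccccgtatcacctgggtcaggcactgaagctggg
The window held 0 matches and 6 CpG dinucleotides, and 10.8% of the windows of 57783 genes held a match. The window was set from the start of this entry, and where it lies relative to the control region of the domain was not examined. The absence of these letters says nothing of ZFP57 at H19.

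Control libraries had, for H19, 112, 59 and 78 counts, or 10.9, 6.67 and 9.42 CPM (8.99 ± 2.13, SD, n = 3). CBX1 libraries had 116, 145 and 200 counts, or 12.9, 16.1 and 19.3 CPM (16.1 ± 3.21, n = 3). CBX1_W42A libraries had 110, 93 and 111 counts, or 10.1, 9.79 and 11.7 CPM (10.5 ± 1.06, n = 3). Every CBX1 library lay above every library of the other groups, and the control and CBX1_W42A libraries overlapped. The log2 fold change of CBX1 over control was 0.86 (SE 0.19, interval 0.45 to 1.27, edgeR adjusted p = 0.00566). That of CBX1_W42A over control was 0.22 (SE 0.20, −0.21 to 0.64, adjusted p = 0.598). The direct comparison of CBX1 with CBX1_W42A gave 0.62 (SE 0.18, 0.25 to 0.98, adjusted p = 0.0645) and was not called, so the readers were not shown to differ. The call with CBX1 rested on 2 libraries. Without control replicate 2, the library lowest in H19, the fold change was 0.67 (adjusted p = 0.0151), and without CBX1 replicate 3, the highest, it was 0.70 (adjusted p = 0.0454), both under 0.75. Over all 14 alternatives it stayed between 0.67 and 1.02 (adjusted p = 2.81e-05 to 0.0454).

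**Figure D3:**
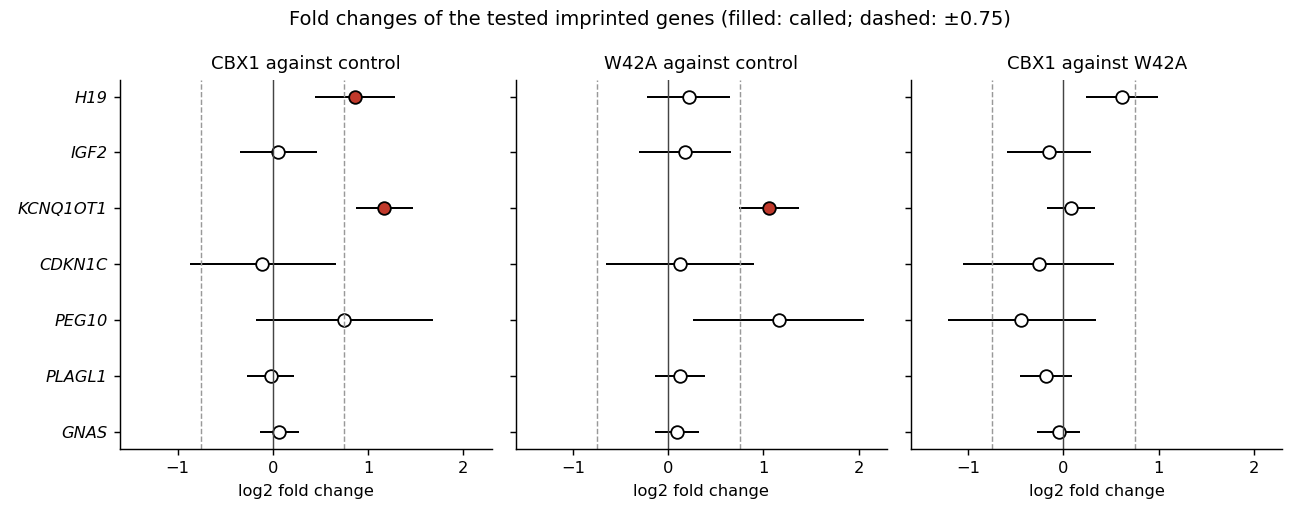
Log2 fold change (points) with its 95% interval (lines) of the 7 tested genes in the 3 comparisons, with called genes filled and dashed lines at the threshold of 0.75 in each direction. H19 is filled with CBX1 only and KCNQ1OT1 with both readers, the intervals of CDKN1C and PEG10 are wide, and those of IGF2, PLAGL1 and GNAS stay between the dashed lines.

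IGF2, the paternally expressed growth factor that shares a control region and enhancers with H19, did not follow it. The exon stretch it could be counted on, outside the coding sequence, had 133, 73 and 87 counts in control (10.6 ± 2.32 CPM, n = 3). It had 88, 95 and 127 with CBX1 (10.9 ± 1.28 CPM) and 108, 89 and 161 with CBX1_W42A (12.1 ± 4.28 CPM), and all 3 groups overlapped. The log2 fold change was 0.06 (−0.33 to 0.45) with CBX1, 0.18 (−0.29 to 0.65) with CBX1_W42A and −0.15 (−0.58 to 0.28) between them, and each interval excluded changes of 0.75. The level of H19 per kilobase was 0.345, 0.332 and 0.368 times that of IGF2 in the control libraries. It was 0.541, 0.626 and 0.646 times in the CBX1 libraries and 0.418, 0.429 and 0.283 times in the CBX1_W42A libraries. The ratio within a library thus separated CBX1 from the other groups, which overlapped, and it was not tested. It sets all of H19 beside the 3′ end of IGF2, outside the coding sequence.

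The other coding genes of the list split into those that were measured well and those that were not. GNAS encodes the stimulatory G protein alpha subunit and has a cluster of imprinted promoters (chr20:57414773-57486247, plus strand). It had 3601, 3558 and 3191 counts in control (379 ± 27.1 CPM, n = 3), 3536, 3459 and 4108 with CBX1 (391 ± 7.37 CPM) and 4900, 3535 and 3757 with CBX1_W42A (406 ± 39.0 CPM). Its log2 fold changes were 0.07 (−0.12 to 0.26), 0.09 (−0.13 to 0.31) and −0.05 (−0.27 to 0.16) in the order CBX1 over control, CBX1_W42A over control and CBX1 over CBX1_W42A. Changes of 0.75 lay outside all 3 intervals, for the sum of all its promoters, which the table does not separate.

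PLAGL1, a zinc finger transcription factor that restrains growth (chr6:144261437-144385735, minus strand), had 582, 541 and 540 counts in control (61.0 ± 4.37 CPM, n = 3). It had 570, 454 and 654 with CBX1 (59.0 ± 7.55 CPM) and 627, 637 and 722 with CBX1_W42A (66.9 ± 9.50 CPM), with all groups overlapping. The fold changes were −0.02 (−0.26 to 0.21), 0.13 (−0.13 to 0.38) and −0.18 (−0.44 to 0.08) in the same order. As for GNAS, changes of 0.75 lay outside these intervals.

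CDKN1C in all 3 comparisons, and PEG10 with CBX1 over control and between the readers, were too imprecise to judge, which means here that the interval held both 0 and a change of 0.75 in size. CDKN1C, the cyclin-dependent kinase inhibitor of the KCNQ1OT1 domain (chr11:2904443-2907111, minus strand), had 20, 20 and 14 counts in control, 19, 13 and 19 with CBX1 and 32, 14 and 19 with CBX1_W42A. Its fold changes were −0.11 (−0.86 to 0.65), 0.12 (−0.64 to 0.89) and −0.26 (−1.04 to 0.52). In none of the comparisons was the direction settled.

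PEG10, a gene derived from a retrotransposon (chr7:94285637-94299007, plus strand), had 11, 12 and 5 counts in control, 15, 13 and 20 with CBX1 and 18, 22 and 28 with CBX1_W42A. Every reader library was above every control library, and neither reader gave a call. The fold change was 0.75 with CBX1 (−0.17 to 1.67, edgeR adjusted p = 0.241) and 1.16 with CBX1_W42A (0.27 to 2.05, adjusted p = 0.144), where the interval lay above 0 but the adjusted p missed the threshold. Over the alternatives it stayed positive, at 0.24 to 0.98 with CBX1 and 0.82 to 1.42 with CBX1_W42A. Between the readers it was −0.44 (−1.20 to 0.33).

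Levels per kilobase of countable span, introns included, set the genes in order in control. Exons made up 5.16% of that span for PLAGL1, 31.1% for GNAS, 49.2% for H19 and 100% for KCNQ1OT1. An order per exon base was not computed and could differ, so this is not an order of transcript levels. GNAS was at 5.30 ± 0.379 CPM per kilobase (SD, n = 3) and IGF2 at 4.09 ± 0.900, and their libraries overlapped. H19 followed at 1.43 ± 0.338, CDKN1C at 0.736 ± 0.107 and PLAGL1 at 0.490 ± 0.0352. KCNQ1OT1 (0.208 ± 0.0393) and PEG10 (0.0755 ± 0.0284) were lowest among those tested, and from IGF2 down no neighbours in this order overlapped. With CBX1, KCNQ1OT1 reached 0.459 ± 0.0483 and overlapped PLAGL1 (0.475 ± 0.0607). With CBX1_W42A it was at 0.435 ± 0.0172, just below PLAGL1 (0.539 ± 0.0764). In bulk RNA, fewer cells with a transcript and less transcript per cell cannot be told apart.

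Among genes averaging 50 counts or more, those whose log2 CPM over the 9 libraries ran most like H19 were HOXB3, a homeobox transcription factor (Pearson r = 0.97), SEMA3G, a secreted semaphorin (0.96), and EPPK1, the cytoskeletal linker epiplakin (0.96), of 12254 genes compared. Their roles are given as background only. The 9 points share libraries, depth and the difference between groups, and r is given as a description.

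Further imprinted genes were read from a list of 26 genes of the same domains as the 10 and a list of 34 genes of other domains. The first list had 22 symbols in the table and 7 genes with enough counts. The second had 31 symbols and 19 genes with enough counts (18 with CBX1_W42A over control). With CBX1 over control, 3 of these 26 genes were called higher and none lower, beside the 7.06% of all genes, and their median log2 fold change was 0.07 against 0.03 over all genes. With CBX1_W42A over control none of 25 was called by edgeR or DESeq2, beside 0.974% of all genes called higher, and 5 passed an unadjusted p of 0.05, beside 19.3% of all genes. Between the readers 2 of 26 were called, both higher with CBX1, beside 0.795% of all genes, and 6 passed an unadjusted p of 0.05, beside 16.6%. None of the 7 domain neighbours was called in any comparison by edgeR or DESeq2. An unadjusted p of 0.05 was passed by 2, 0 and 1 of them, beside 34.2%, 19.3% and 16.6% of all genes. Untestable genes included SNRPN, NDN, DLK1 and NNAT, and 4 entries of the second list, like PEG3, had no base of their own.

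The 3 called genes were ZNF331, NAA60 and MKRN3. ZNF331, a KRAB zinc finger gene (chr19:54024235-54083523, plus strand), had 502, 541 and 442 counts in control, 1185, 1233 and 1233 with CBX1 and 669, 695 and 611 with CBX1_W42A. All CBX1 libraries were above all others, with a log2 fold change of 1.27 over control (1.05 to 1.49, edgeR adjusted p = 4.88e-06) and 0.96 over CBX1_W42A (0.74 to 1.19, adjusted p = 5.28e-05). With CBX1_W42A over control it was 0.28 (0.03 to 0.53, adjusted p = 0.203). The readers thus differed for this gene by direct test, and both calls held in all 14 alternatives.

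NAA60, an N-terminal acetyltransferase gene, has a pair of entries, and only the longer one collected counts. That entry (chr16:3415099-3536960, plus strand) contains the shorter one, so its counts came from the 57.8% of its span that lies upstream of the usual gene body. It had 34, 38 and 23 counts in control, 102, 106 and 96 with CBX1 and 54, 62 and 37 with CBX1_W42A. CBX1 libraries were above all others. The log2 fold change was 1.66 over control (1.20 to 2.11, edgeR adjusted p = 0.000118) and 1.07 over CBX1_W42A (0.62 to 1.52, adjusted p = 0.00989). The latter call was lost without CBX1 replicate 1 (1.03, adjusted p = 0.0514) and without CBX1_W42A replicate 3 (0.92, adjusted p = 0.0521). Whether the NAA60 mRNA itself changed cannot be read from this entry.

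MKRN3, a ubiquitin ligase gene of the Prader-Willi region, had 1, 1 and 0 counts in control, 8, 5 and 7 with CBX1 and 2, 0 and 0 with CBX1_W42A. The CBX1 total of 20 against 2 in control gave a ratio of 9.68 after scaling (95% interval 2.35 to 85.4, exact Clopper-Pearson, counting error only). Its edgeR adjusted p of 0.0217 rose to 0.0543, 0.0658, 0.0695 and 0.0546 without control replicate 1, control replicate 3, CBX1 replicate 1 and CBX1 replicate 3. DESeq2 gave 0.067 and removal of the trend with abundance 0.0966, so this call rests on few reads.

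**Figure D4:**
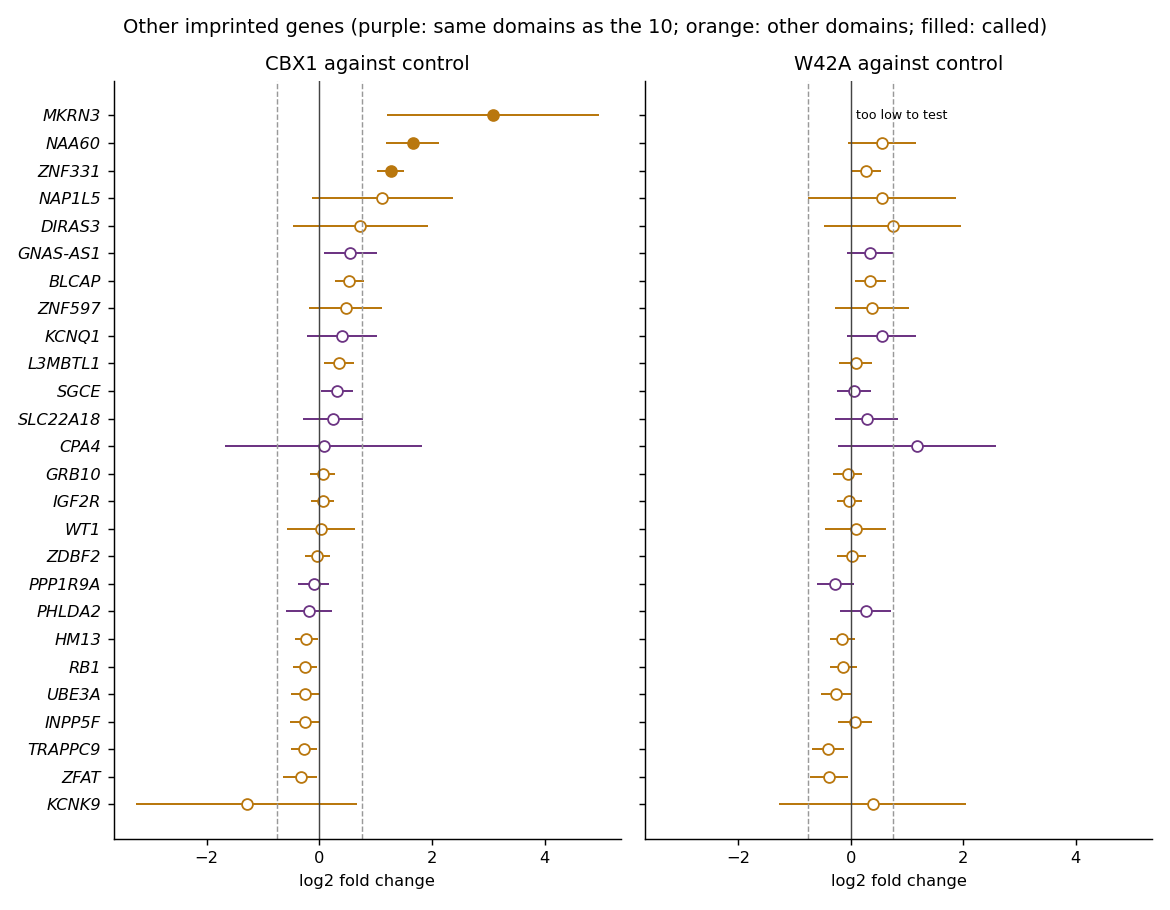
Log2 fold change over control (points, with 95% intervals) for the other imprinted genes that had enough counts, from the same domains as the 10 genes (purple) or from others (orange), ordered by the value with CBX1. ZNF331, NAA60 and MKRN3 are filled (called) with CBX1. No gene is filled with CBX1_W42A (W42A), where MKRN3 was too low to test, and dashed lines mark 0.75 in each direction.

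The domain neighbour nearest to a call was GNAS-AS1, the antisense RNA at GNAS. It had 186, 167 and 270 counts in control, 256, 233 and 465 with CBX1 and 288, 255 and 333 with CBX1_W42A, and replicate 3 was highest in each group. Its log2 fold change with CBX1 was 0.55 (0.10 to 1.00, edgeR adjusted p = 0.0807), and leaving out a library moved it widely. It was 0.88 (adjusted p = 0.0116) without control replicate 3, but 0.38 (adjusted p = 0.25) without control replicate 1, 0.42 (adjusted p = 0.17) without control replicate 2 and 0.25 (adjusted p = 0.459) without CBX1 replicate 3. It is singled out after its values were seen. The highest levels per kilobase in the 2 lists belonged to PHLDA2 (9.35 CPM per kilobase over the 9 libraries), HM13 (2.19) and IGF2R (1.55), and none of them was called. PHLDA2 restrains placental growth, and its log2 fold change was −0.18 (−0.57 to 0.21) with CBX1 and 0.27 (−0.17 to 0.70) with CBX1_W42A.

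Of 9 genes that maintain imprints (ZFP57, ZNF445, TRIM28, SETDB1, DNMT1, UHRF1, CTCF, ATRX and SMCHD1), 8 were tested and none was called by edgeR or DESeq2 in any comparison. An unadjusted p of 0.05 was passed by 2 with CBX1 over control, 1 with CBX1_W42A over control and 2 between the readers, beside 34.2%, 19.3% and 16.6% of all genes tested. SETDB1 passed the adjusted p between the readers at a log2 fold change of 0.47 (0.23 to 0.70, edgeR adjusted p = 0.0327), under the size asked for a call. ZFP57 had 0 counts in all 9 libraries, while TRIM28 had 2441 to 3370 counts. These values describe captured RNA and not the proteins.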

How the data were processed

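RNA captured by Chrom-seq was measured in 9 libraries (3 each of CBX1, CBX1_W42A and control), grouped by their labels. The authors used fastp (version 0.23.1) for trimming, HISAT2 (version 2.1.0) for alignment to hg19 and featureCounts (version 2.0.1) for counting, and deposited raw counts per GENCODE gene, not normalized. The strand setting and the treatment of introns are not given in the sources used here and were read from the table: genes inside a gene of the other strand have counts, those inside a gene of their own strand have 0. With 8379542 to 11082852 counts a library, 3 counts are 0.271 to 0.358 CPM.

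The 10 genes and all gene lists were chosen with earlier results of these data known. Counts were scaled by TMM and tested in R (version 4.3.3) with edgeR's quasi-likelihood test (version 4.0.16), Benjamini-Hochberg adjustment, on the 6 libraries compared, over genes whose counts summed to more than 18. Intervals are 95%, log2 CPM used a prior count of 2. Named genes were all 10, the listed imprinted genes called in any comparison, the 3 with the highest level per kilobase and the 3 most like H19. Alternatives were DESeq2 (version 1.42.0), RLE factors, library size alone, no filter, filterByExpr, all 9 libraries in 1 fit, the replicate number as a block, removal of the trend with abundance and leaving out each library. The fit was tested on simulated data. Tables and figures used Python (version 3.11.15). Exons came from GENCODE v44lift37. Promoter sequences of the other genes are not reported here.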

Additional observations from a re-analysis of the deposited data

Results flagged for a closer look

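A difference between the CBX1 and CBX1_W42A groups, seen in their direct comparison by edgeR, singled out 2 of the imprinted genes beyond the 10. ZNF331 was higher with CBX1 by 0.96 on the log2 scale, in 3 of 3 libraries against each CBX1_W42A library. NAA60, counted only upstream of its usual gene body, was higher with CBX1 by 1.07, again in 3 of 3 libraries. Noncoding genes took 4.36% to 4.59% of counts with CBX1 and 3.95% to 4.13% with CBX1_W42A, and the part of that shift in these differences was not tested. Groups of 3 libraries are too small for a test of single outlying libraries.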

How the results depend on the processing

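In 277 of 294 values under alternatives, the 7 tested genes kept their direction and stayed called or not called as before. This does not fix their size, since PEG10 with CBX1, never called, ran from 0.24 to 0.98. H19 lost its call with CBX1 without control replicate 2 and without CBX1 replicate 3, which took the number of genes called from 2 to 1 (range 1 to 2 when leaving out a library). The log2 fold change of CBX1 over control then ran from 0.67 to 1.02 for H19. Signs turned only for genes not called. With CBX1 over control, PLAGL1 went from −0.02 to 0.06 by library size alone and 0.08 with the abundance trend removed, and IGF2 from 0.06 to −0.05 with the trend removed. CDKN1C with CBX1_W42A became −0.19 and GNAS between the readers 0.03 with the trend removed. Leaving out a library gave −0.08 to 0.07 for PLAGL1, −0.10 to 0.23 for IGF2 and −0.23 to 0.02 for CDKN1C with CBX1. It gave −0.17 to 0.33 for CDKN1C and −0.14 to 0.37 for IGF2 with CBX1_W42A. Between the readers it gave −0.45 to 0.05 for CDKN1C, −0.28 to 0.18 for IGF2 and −0.10 to 0.03 for GNAS. The cause was not tested.

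Counts over all genes moved more. With CBX1, 1330 genes were called higher, 636 with the trend removed. With CBX1_W42A, 182 became 338 without a filter, 52 with the trend removed, 282 with all 9 libraries in 1 fit and 36 to 141 without a library, lowest without control replicate 1. Between the readers, 154 became 244 without a filter and 67 to 184 without a library, lowest without CBX1 replicate 1. Other imprinted genes called numbered 2 to 3 with CBX1, 0 with CBX1_W42A, and between the readers 2, or 1 to 2 without a library.

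Equal replicate numbers did not pair the samples (correlations of −0.215 to 0.168 for the 9 pairs with the same number, −0.283 to 0.224 for the 18 others). With the replicate number as a block, 250 genes were called higher between the readers, 3 of them other imprinted genes with MKRN3 added, and no call of the 10 genes changed.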

Other observations

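The IGF2 axis was read from 5 further genes, the receptors IGF1R and INSR and the RNA binders IGF2BP1, IGF2BP2 and IGF2BP3. None reached a log2 change of 0.75 in any comparison by edgeR, and none was called by DESeq2. Of all genes tested, edgeR called 7.06%, 0.974% and 0.795% higher in the 3 comparisons. An unadjusted p of 0.05 was passed by 2 genes with CBX1 over control, 3 with CBX1_W42A over control and 0 between the readers. Over all genes tested the shares were 34.2%, 19.3% and 16.6%. IGF2BP1 had a log2 fold change of −0.43 (−0.63 to −0.23, edgeR adjusted p = 0.00488) with CBX1. With CBX1_W42A its value was −0.33 (−0.54 to −0.12, adjusted p = 0.0844). IGF2BP2, which binds and stabilizes mRNAs, was at 234 CPM in control, 172 with CBX1 and 170 with CBX1_W42A (means of 3 libraries). Its log2 fold change was −0.42 (−0.61 to −0.24, edgeR adjusted p = 0.00364) with CBX1 and −0.47 (−0.68 to −0.26, adjusted p = 0.0213) with CBX1_W42A, below the size asked for a call. LIN28B, an RNA binding protein gene used as a marker of HEK293T, was lower by a like amount, at −0.52 (adjusted p = 0.000903) and −0.46 (adjusted p = 0.0303). Among all genes, 1782 of 18837 were lower at an adjusted p below 0.05 with CBX1 and 233 of 18680 with CBX1_W42A. These comparisons share the 3 control libraries.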
